A study of Mus musculus with 8 samples.

Results

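The HOXA cluster is a row of homeobox genes on mouse chromosome 6, and its 9 members described here are Hoxa2, Hoxa3, Hoxa4, Hoxa5, Hoxa6, Hoxa7, Hoxa9, Hoxa10 and Hoxa11. They were taken by symbol from tables that list 24421 genes. All 9 had counts and passed the low-count filter that left 12623 genes for testing. The cells came from bone marrow of C57BL/6 mice with leukemia, were transformed by the MLL-AF9 fusion and were sorted for high c-KIT, so the fusion, the strain and the gate are common to every library. The WT group (2 libraries) was from Ikzf2f/f mice and the KO group (2 libraries) from Ikzf2Δ/Δ mice, in which the gene for the Ikaros family factor Helios is deleted. The labels analysed do not say how the deletion was driven, how old the mice were or whether replicates were separate animals. In sex-linked RNA, given below, KO replicate 1 had the female pattern and KO replicate 2 the male. The cells of these 2 libraries thus came from different animals. Both WT libraries had the male pattern, which does not tell whether they shared an animal. Every p-value speaks only of spread among libraries, part of which may be technical.

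HOX proteins are transcription factors that bind DNA through a homeodomain, mostly together with PBX and MEIS partners. Genes towards the Hoxa2 side of the cluster are switched on early and in anterior tissue, and those towards Hoxa13 later and in posterior tissue. In blood, the central and posterior HOXA genes are active in stem and progenitor cells and are silenced as cells mature. MLL fusions bind the locus and keep it active, and Hoxa9 with its partner Meis1 is a known driver of the resulting leukemia.

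Promoter windows are shown for Hoxa5, the member with the smallest p between genotypes, for Hoxa6, the member that varied most between libraries, and for Hoxa9, the member with the most counts. Each is the 250 bases before the RefSeq start on GRCm38.p6, minus strand, written 5′ to 3′. Capitals mark GGGAA, the core motif of Ikaros family factors, or its reverse complement TTCCC.
Hoxa5, chr6:52204588-52204837: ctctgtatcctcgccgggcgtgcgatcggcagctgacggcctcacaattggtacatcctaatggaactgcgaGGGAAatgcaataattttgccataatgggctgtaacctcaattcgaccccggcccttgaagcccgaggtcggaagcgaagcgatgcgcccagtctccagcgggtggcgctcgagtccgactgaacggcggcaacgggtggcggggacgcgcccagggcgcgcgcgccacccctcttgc
Hoxa6, chr6:52208673-52208922: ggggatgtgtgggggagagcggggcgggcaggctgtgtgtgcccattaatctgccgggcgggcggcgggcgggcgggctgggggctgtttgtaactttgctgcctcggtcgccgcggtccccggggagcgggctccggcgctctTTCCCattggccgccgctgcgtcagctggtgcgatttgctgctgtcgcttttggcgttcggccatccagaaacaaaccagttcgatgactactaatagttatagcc
Hoxa9, chr6:52227371-52227620: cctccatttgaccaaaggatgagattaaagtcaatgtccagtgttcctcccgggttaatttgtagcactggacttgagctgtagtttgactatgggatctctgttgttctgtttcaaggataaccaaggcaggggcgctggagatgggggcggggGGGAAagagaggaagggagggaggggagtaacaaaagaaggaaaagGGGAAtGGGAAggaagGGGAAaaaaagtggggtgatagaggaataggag

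The Hoxa5 window was rich in CpG, with 28 CpG and an observed over expected ratio of 1.11, a value above that of 98.0% of 32841 mouse promoter windows. The Hoxa6 window held 24 CpG (ratio 0.93). The Hoxa9 window held only 3 (ratio 0.27), below the median ratio of 0.37 over all windows. GGGAA on either strand occurred once in the Hoxa5 window, once in the Hoxa6 window and 4 times in the Hoxa9 window. Windows were found for 8 of the 9 members, all but Hoxa4, with 2 for Hoxa10, and 7 of these 9 windows held GGGAA, against 56.2% of all windows. Of the other motifs searched on both strands, the MEIS core TGACAG lay in 2 of the 9 windows (Hoxa2 and Hoxa3), against 15.9% of all. The HOX-PBX form TGATNNAT lay in the Hoxa2 window, against 7.69% of all. The caudal-type factor core TTTATG lay in the Hoxa7 window, against 10.8%. TATAAA lay in 1 window of Hoxa10, against 12.4%. These are matches of letters, not measured binding.

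The locus also encodes a microRNA, Mir196b, between Hoxa9 and Hoxa10. MicroRNAs of its family are known to act on HOX transcripts through the seed, bases 2 to 8, shown in capitals. The mature forms of Mir196b and the family member that shares its 5p seed, from copies on chromosomes 11 and 15, are as follows in RefSeq.
mmu-miR-196b-5p: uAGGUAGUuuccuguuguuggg
mmu-miR-196b-3p: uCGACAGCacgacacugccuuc
mmu-miR-196a-5p: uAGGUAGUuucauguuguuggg
Reads over the Mir196b hairpin numbered 19 and 31 in WT and 21 and 21 in KO, and these libraries of long RNA do not measure the mature microRNA.

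Before the results, the libraries were checked. Gene counts per library ran from 16006081 to 19286090, so that 3 counts, the limit that a count of 0 allows for counting error only, equal 0.150 to 0.186 CPM (read counts scaled to a common library size with edgeR's TMM factors). Ikzf2 had 283 and 271 CPM in WT replicates 1 and 2, and 10.9 and 26.5 CPM in KO replicates 1 and 2. Its adjusted p was 0.332 by edgeR's test, which with these libraries called 0 genes, and 1.13e-13 by DESeq2. KO replicate 1 stood apart in sex-linked RNA, with 833 CPM of Xist against 0.35 to 0.60 CPM in the others. The Y-linked gene Ddx3y went the other way, with 0.062 CPM in KO replicate 1 against 70.1 to 110 CPM in the others. This is the pattern of female cells in KO replicate 1 and of male cells in the others. Sex thus differed within the KO group and is not fully separate from genotype. The sorted receptor Kit (216 to 376 CPM) and Spi1, the gene of the myeloid factor PU.1 (412 to 454 CPM), were present in all libraries. Of the 9 markers of immature myeloid leukemic cells, DESeq2 called 1, the granule enzyme gene Mpo. It had 286 and 343 CPM in WT replicates 1 and 2 and 7073 and 4311 CPM in KO replicates 1 and 2 (DESeq2 adjusted p = 1.54e-30, edgeR adjusted p = 0.293), and DESeq2 called it in each of 4 fits that left out 1 library. The 9 markers summed to 3154 to 3233 CPM over the WT libraries and 7964 to 9409.6 CPM over the KO libraries. The gap between these sums was mostly Mpo, and of the 9 fold changes 4 were below 0 and 5 above. The T cell markers Cd3e and Cd8a were at 0 to 0.062 CPM, and the erythroid Hbb-bs and the platelet gene Ppbp were at 0. Lck, of the same T and NK list, had 4.45 and 3.61 CPM in WT against 0.43 and 1.29 CPM in KO (edgeR adjusted p = 0.589). Summed markers of T and NK cells came to 69.7 to 104 CPM in WT and 95.9 to 136 CPM in KO, mostly Nkg7, and those of B cells to 17.9 to 24.1 CPM and 25.7 to 35.8 CPM, mostly Cd79b. Erythroid markers summed to at most 2.78 CPM. Megakaryocyte markers summed to 30.3 and 118 CPM in the WT libraries against 11.8 and 33.2 CPM in the KO libraries, mostly Itga2b (28.6 and 112 against 2.85 and 21.3 CPM), while Gp1bb (0.20 and 2.39 against 3.71 and 6.05 CPM) and Gp9 (1.40 and 3.34 against 4.83 and 5.69 CPM) were higher in both KO libraries. Stromal and endothelial markers summed to 208 to 279 CPM over all libraries, a sum of opposite differences. The adhesion gene Vcam1 had 9.60 and 21.6 CPM in WT against 136 and 87.8 CPM in KO (DESeq2 adjusted p = 1.82e-06, called in each of 4 fits with 1 library left out), and Pecam1 had 236 and 257 CPM against 71.8 and 152 CPM (DESeq2 adjusted p = 0.182). The immediate early genes Fos and Jun followed the replicate number, with Fos at 177 and 408 CPM in the libraries numbered 1 of WT and KO and at 991 and 2098 CPM in those numbered 2, and Jun at 303 and 383 against 1002 and 2832 CPM. The part of these genes in the HOXA results was not tested.

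The cluster as a whole had a lower summed level in the KO libraries. The 9 members summed to 781 and 791 CPM in WT and to 615 and 629 CPM in KO. Both KO sums lay below both WT sums and Hoxa5 made up the largest piece of the gap, with a WT mean of 159 CPM and a KO mean of 92.4 CPM. All 9 fold changes were below 0, against 50.5% of all genes tested, with a median log2 fold change of -0.39 against -0.0043 over all genes tested. None of the 9 passed edgeR's quasi-likelihood test with Benjamini-Hochberg adjustment over all genes, in which 0 genes were called (0%). At an unadjusted p under 0.05, 1 of 9 members was lower (Hoxa5), against 3.52% of genes tested, with 968 genes (7.67%) of either direction at that level. How many members reached that level changed with the library left out, and so did the number over all genes. Hoxa5 kept a log2 fold change of -0.66 once WT replicate 1 was dropped. Dropping KO replicate 2 instead gave -0.81. The limma-voom test likewise called 0 genes (0%). DESeq2 called 352 genes (2.62% of those with an adjusted p; 1.07% lower and 1.56% higher) and 0 members. Both KO libraries lay below both WT libraries for 5 members, Hoxa4, Hoxa5, Hoxa7, Hoxa9 and Hoxa10, against 19.1% of genes tested. The members lie in 1 locus and some have overlapping spans, so they are not treated as independent, and in bulk samples fewer cells of a type and less RNA per cell cannot be told apart. Without KO replicate 1 the median was -0.22 and 7 of 9 members were below 0. Without KO replicate 2 it was -0.71, and without WT replicate 2 it was -0.25 with 8 of 9 below 0.

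**Figure D1:**
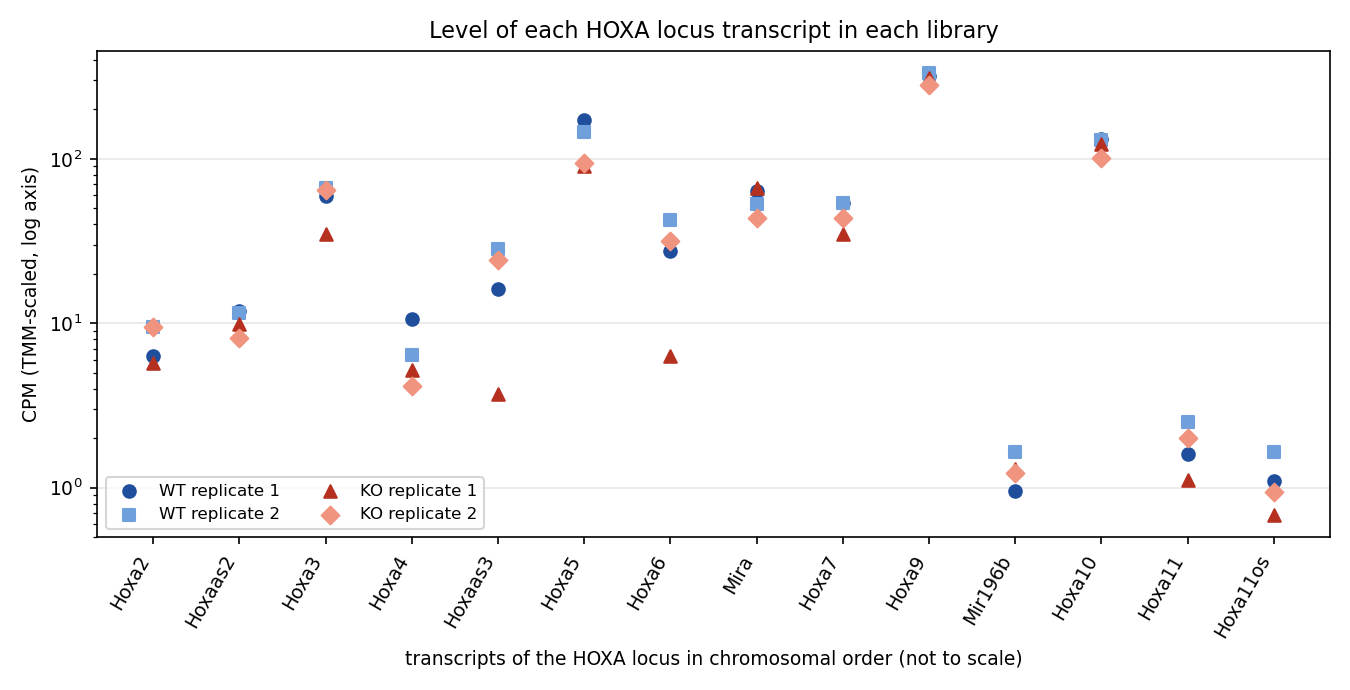
Each point is 1 library's TMM-scaled CPM (log axis) for the members and other HOXA locus transcripts described here, in chromosomal order. Hoxa9, Hoxa10 and Hoxa5 have the highest CPM, and KO replicate 1 lies far below the other libraries at Hoxa6 (6.31 CPM) and Hoxaas3 (3.71 CPM).

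Of the anterior members, Hoxa2, a patterning gene of the hindbrain (chromosome 6, 52162417 to 52164831), measured 6.35 and 9.44 CPM in the WT libraries against 5.69 and 9.45 CPM in the KO libraries. The groups overlapped, and the replicates of each genotype lay further apart than the genotypes. With 2 libraries per group Hoxa2 had a log2 fold change of -0.060 (SE 0.49), which turned to 0.26 without KO replicate 1 and to 0.27 without WT replicate 2. Hoxa3, needed for thymus and throat structures (52169059 to 52213067), measured 59.5 and 66.5 CPM in the WT libraries against 35.0 and 64.3 CPM in the KO libraries. Only KO replicate 1 was low, and the groups overlapped. The log2 fold change of Hoxa3, -0.34 (SE 0.33), was 0.031 without KO replicate 1 and -0.85 without KO replicate 2. Hoxa4 (52189682 to 52191703) measured 10.7 and 6.37 CPM in the WT libraries against 5.20 and 4.17 CPM in the KO libraries. Both KO values lay under both WT values, and the WT libraries differed from each other by -0.73 in log2 CPM. Hoxa4 had a log2 fold change of -0.86 (SE 0.49; 95% interval -2.10 to 0.38), which was -0.44 without WT replicate 1.

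Hoxa5, a central member that influences the choice between myeloid and erythroid fates (52201754 to 52204587), had the smallest p of the members. It had 172 and 146 CPM in the WT libraries against 90.9 and 93.9 CPM in the KO libraries, from 3439, 2753, 1470 and 1600 counts. The KO libraries were within 0.047 log2 CPM of each other and lay below both WT libraries, with a KO mean 41.9% lower. The log2 fold change was -0.78 (SE 0.20; 95% interval -1.28 to -0.28; unadjusted p = 0.00944, adjusted p = 0.444 by edgeR). DESeq2 gave an adjusted p of 0.0884, so Hoxa5 passed neither test over all genes. Over the other settings that kept all 4 libraries the adjusted p of Hoxa5 ran from 0.0884 (DESeq2) to 0.484 (limma-voom). With 1 library left out at a time the fold change stayed between -0.88 and -0.66, and across all 15 fits it was below 0 in 15.

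Hoxa6 (52204858 to 52208672), the gene next to Hoxa5, varied most between libraries. It had 27.5 and 42.3 CPM in the WT libraries against 6.31 and 31.7 CPM in the KO libraries. KO replicate 2 lay inside the WT range, while KO replicate 1, at 102 counts (95% Poisson interval 5.15 to 7.66 CPM, counting error only), was 5.02-fold below its partner. The log2 fold change was -0.88 (SE 0.76, adjusted p = 0.893). It was -0.14 without KO replicate 1 and -2.47 without KO replicate 2, a fit in which DESeq2 called Hoxa6 (adjusted p = 9.2e-04). Hoxa7 (52215623 to 52218573), a frequent target of MLL fusions, measured 53.7 and 53.5 CPM in the WT libraries against 34.8 and 43.6 CPM in the KO libraries. Its WT libraries were nearly equal, and both KO libraries lay below them. The log2 fold change of Hoxa7 was -0.45 (SE 0.22; 95% interval -1.02 to 0.12), and -0.29 without KO replicate 1.

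The posterior members Hoxa9 and Hoxa10, which drive self-renewal in blood, showed small separations between the genotypes. Hoxa9, the member most tied to MLL leukemia (52223097 to 52227370), measured 318 and 334 CPM in the WT libraries against 312 and 279.6 CPM in the KO libraries. KO replicate 1 lay just under WT replicate 1, so the groups were separate by a small margin. The log2 fold change of Hoxa9 was -0.14 (SE 0.21), with a 95% interval of -0.66 to 0.38, and it was between -0.22 (without KO replicate 1) and -0.060 (without KO replicate 2). Hoxa10, which expands progenitors when raised (52231197 to 52240854), measured 132 and 131 CPM in the WT libraries against 124 and 101 CPM in the KO libraries. Its log2 fold change was -0.23 (SE 0.20; 95% interval -0.74 to 0.28), and it was -0.088 without KO replicate 2 and -0.38 without KO replicate 1. Hoxa11, a limb and uterus gene (52242105 to 52245810), was near the lower end of detection, with 32 and 47 counts in WT and 18 and 34 in KO. These equal 1.60, 2.49, 1.11 and 2.00 CPM, and the groups overlapped. The fold change of Hoxa11 was -0.39 (SE 0.67), and it was -0.87 without KO replicate 2 but -0.026 without WT replicate 2 and -0.033 without KO replicate 1. Beyond it, Hoxa13, the lncRNA gene Hottip and the homeobox gene Evx1 had 0 counts in every library, as did Halr1 at the other end.

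**Figure D2:**
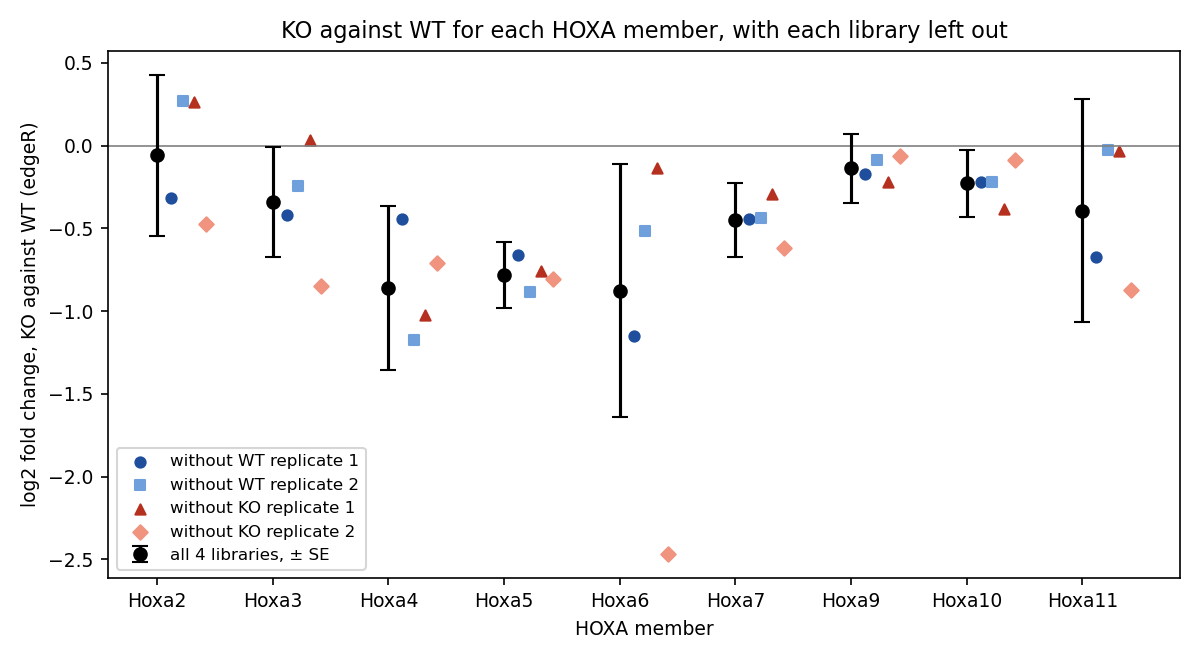
Black points give the edgeR log2 fold change of KO against WT for each member with its SE (all 4 libraries), and coloured points the value with 1 library left out. Hoxa5 stays between -0.88 and -0.66, whereas Hoxa6 ranges from -2.47 to -0.14.

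The differences between members can be read without library scaling as shares of the 9 members' counts. Hoxa5 made up 22.0% and 18.5% of these counts in WT and 14.8% and 14.9% in KO, and the groups did not overlap. Hoxa9 made up 40.7% and 42.2% in WT and 50.8% and 44.4% in KO, again without overlap but in the other direction. The shares of all other members overlapped between the genotypes. Shares sum to a fixed total, so a lower share of 1 gene raises the others. The count ratio of Hoxa9 to Hoxa5 was 1.85 and 2.28 in WT and 3.44 and 2.98 in KO. The ratio of Hoxa9 to its neighbour Hoxa10 was steadier, at 2.41, 2.55, 2.53 and 2.78 in WT replicates 1 and 2 and KO replicates 1 and 2. With 2 libraries against 2, an exact permutation test cannot go below p = 0.333, so none is given for these shares.

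**Figure D3:**
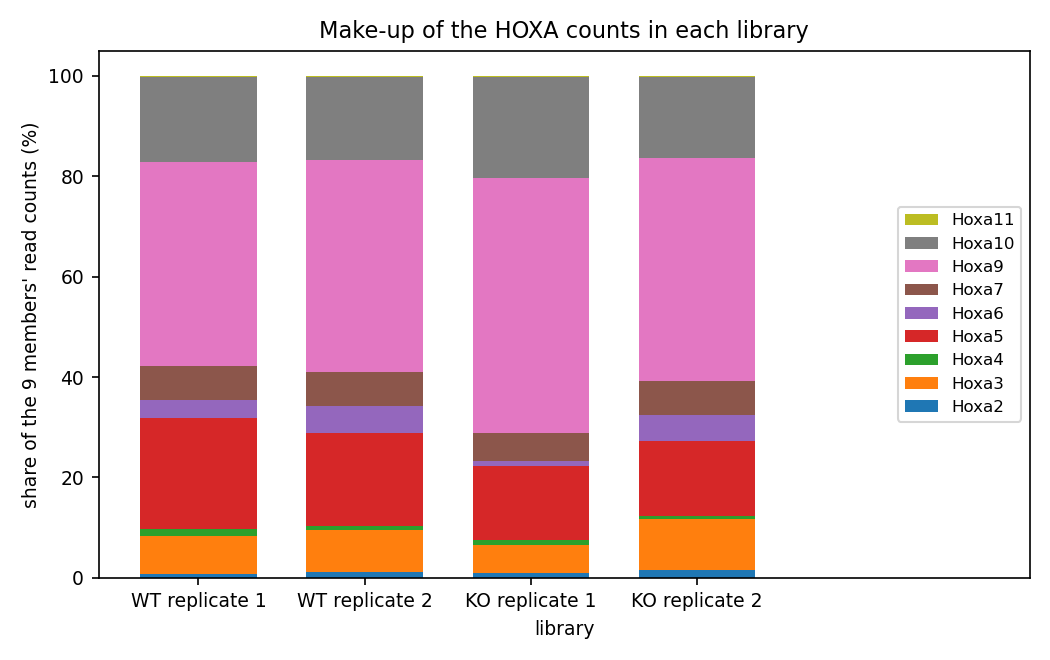
Stacked bars give each member's percentage of the 9 members' summed read counts in each library, not divided by gene length. The Hoxa5 segment is 22.0% and 18.5% in WT and 14.8% and 14.9% in KO, and that of Hoxa6 is 1.03% in KO replicate 1.

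Members can be ranked only per length, and the lengths at hand are gene spans with introns, so a CPM per kilobase of span is a lower limit on the level per exon length. On that scale Hoxa9 ranked highest at 72.7 ± 5.31 (SD, n = 4 libraries) and Hoxa5 next at 44.4 ± 14.1. Hoxa9 stood above Hoxa5 in 4 of 4 libraries, and Hoxa5 above Hoxa7 (15.7 ± 3.06) in 4 of 4. Hoxa7 and Hoxa10 (12.6 ± 1.51) overlapped, as did Hoxa10 and Hoxa6 (7.07 ± 3.96). Hoxa6 and Hoxa4 (3.26 ± 1.41) also overlapped, and Hoxa4 and Hoxa2 (3.20 ± 0.83) changed places between libraries. Hoxa3 (1.28 ± 0.33) and Hoxa11 (0.49 ± 0.16) came last and did not overlap. The annotated span of Hoxa3, 44009 bases, covers Hoxa4, Hoxa5 and Hoxa6 whole, which lowers its level on this scale. The span of Hoxa10, 9658 bases, likewise runs to the further of its annotated starts. A span to the nearer start would be shorter, so the place of Hoxa10 beside Hoxa7 and Hoxa5 may depend on annotation.

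The noncoding transcripts of the locus may bear on these counts because some of their spans, introns included, overlap those of members. Hoxaas3, an lncRNA whose span covers Hoxa5 and Hoxa6 entirely, had 16.3 and 28.1 CPM in the WT libraries against 3.71 and 24.2 CPM in the KO libraries. It was low in the same library as Hoxa6, KO replicate 1, and stood 6.52-fold higher in KO replicate 2. The count ratio of Hoxaas3 to Hoxa6 was 0.59, 0.66, 0.59 and 0.76 in WT replicates 1 and 2 and KO replicates 1 and 2. Reads set aside as ambiguous, and so given to no gene, equalled 0.708% to 0.797% of each library's gene counts. Overlap of exons was not examined and no strand setting is stated. How well reads of Hoxa6 and Hoxaas3 were separated is therefore not known. The same holds for Hoxa5, Hoxa3, Hoxa4, which lies within the span of Hoxa3, and the part of Hoxa11 under Hoxa11os. Hoxa5 itself was not low in KO replicate 1 relative to KO replicate 2, and there the ratio of Hoxa5 to Hoxa6 was 14.4, against 2.96 in KO replicate 2.

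Hoxaas2, whose span overlaps that of Hoxa3 by 393 bases, had 11.9 and 11.6 CPM in the WT libraries against 9.90 and 8.10 CPM in the KO libraries. Its log2 fold change was -0.38 (SE 0.36). Hoxa11os had 1.10 and 1.64 CPM in the WT libraries against 0.68 and 0.94 CPM in the KO libraries. Mira, an lncRNA between Hoxa6 and Hoxa7 (52214491 to 52215288), was at 64.0 and 53.2 CPM in the WT libraries against 66.3 and 43.7 CPM in the KO libraries. Mira was highest in KO replicate 1, where Hoxa6 was lowest, but by a margin within counting error. Its 95% Poisson interval there was 62.3 to 70.3 CPM, against 60.6 to 67.6 CPM in WT replicate 1.

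**Figure D4:**
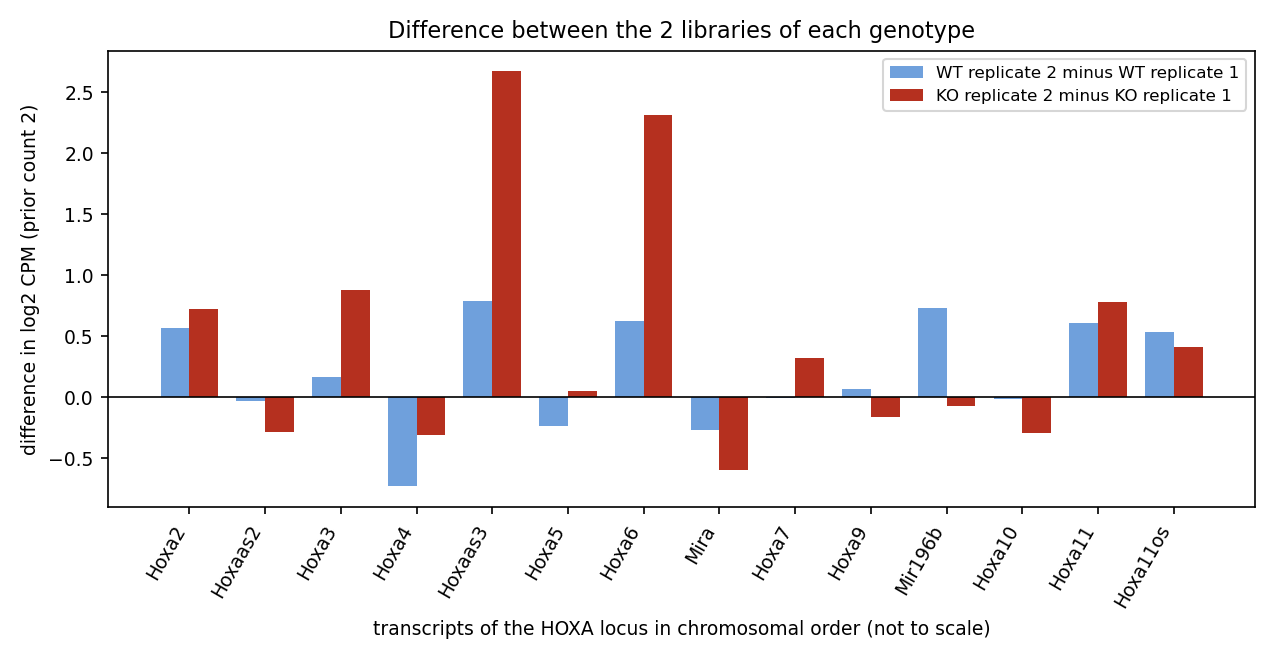
Bars give the log2 CPM difference (prior count 2) between the 2 libraries of each genotype for the same HOXA locus transcripts, in chromosomal order. Hoxaas3 and Hoxa6 differ by 2.67 and 2.31 between the KO libraries, whereas Hoxa5 differs by 0.047.

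The spread between replicates was of the same order as the genotype difference. Over the 9 members, the median size of the genotype difference in log2 CPM was 0.41, against 0.24 from WT replicate to WT replicate and 0.32 from KO replicate to KO replicate. Over all genes tested these medians were 0.27, 0.27 and 0.43. For 6 of 9 members the KO libraries differed from each other by more than the genotypes did, near the 62.4% of all genes tested for which this held. The genotype difference here is a mean over 2 pairs of libraries, and each replicate difference comes from 1 pair. The replicate difference is thus the noisier of these measures, and they are not strictly alike. Between libraries of the same number, the median member was 0.62 lower in KO for replicate 1 (-0.62) and 0.31 lower for replicate 2 (-0.31). The members closest to each other over the 4 libraries were Hoxa9 and Hoxa10, whose centred log2 CPM profiles lay 0.15 apart by Euclidean distance, against 0.41 for Hoxa5 and Hoxa7. Btk, a kinase of B and myeloid cells, was the gene outside the locus nearest to the members' mean profile (distance 0.049). Next came Mybbp1a, a nucleolar MYB-binding protein gene, Nfe2l1, Nod2, a sensor of bacterial wall fragments, and Tyw1 (up to 0.072). They were picked from 11693 candidates, with predicted and unnamed genes left out, over only 4 libraries. The members themselves lay further from that mean, from 0.14 (Hoxa7) to 1.54 (Hoxa6). Nearness to it is therefore not likeness to each member.

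Genes that flank or control the cluster were read from lists. Of the flanking genes, 5 of 7 tested had values under 0 (median -0.016), and 0 passed edgeR or DESeq2. Skap2, on the Hoxa2 side, had 335 and 478 CPM in the WT libraries against 363 and 303 CPM in the KO libraries, and Hibadh, on the Hoxa13 side, 61.0 and 60.4 CPM in the WT libraries against 63.8 and 56.2 CPM in the KO libraries. Both overlapped between genotypes. Tax1bp1, an autophagy adaptor, had a log2 fold change of -0.44 (SE 0.27), Hnrnpa2b1, an RNA-binding protein gene, of -0.044 (SE 0.23) and Snx10, a sorting nexin, of 0.85 (SE 0.24, edgeR adjusted p = 0.482).

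The MLL complex and its elongation partners, which keep HOXA genes active, were split evenly, with 12 of 24 below 0 and a median of -0.027. Ash2l, a core subunit of the methyltransferase complex, was lower in KO by DESeq2, at 191 and 264 CPM in the WT libraries against 117 and 88.6 CPM in the KO libraries (an edgeR log2 fold change of -1.15 with SE 0.27, DESeq2 adjusted p = 0.0231, edgeR adjusted p = 0.444). Of 4 DESeq2 fits that left out 1 library, 1 called Ash2l, that without KO replicate 1 (adjusted p = 0.0259), and its adjusted p was 0.196, 0.688 and 0.154 without WT replicate 1, WT replicate 2 and KO replicate 2. Kmt2a, the gene of MLL itself, had 0.37 (SE 0.33), Aff1 0.026 (SE 0.32) and Mllt3, the fusion partner AF9, 0.72 (SE 0.43). Counts cannot tell the fusion transcript from the normal Kmt2a and Mllt3 genes.

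Polycomb genes, which repress HOX clusters, numbered 23, of which 11 lay under 0 (median 0.0022) and 0 passed either test. Suz12 had -0.035 (SE 0.22), Asxl1 -0.010 (SE 0.24), Cbx8 -0.40 (SE 0.25) and Phf1 0.38 (SE 0.26). CTCF and cohesin genes, which set the boundaries within HOX clusters, had 3 of 11 below 0 and a median of 0.055, again with 0 past either test. Rad21 had 0.22 (SE 0.21), Maz 0.11 (SE 0.24) and Pds5a -0.25 (SE 0.51). Of 13 tested other regulators 5 were below 0, with 0 past either test. Npm1, a nucleolar protein gene whose mutation in leukemia is known to go with high HOXA levels, had -0.53 (SE 0.28). Prmt1 had -0.34 (SE 0.22), the retinoic acid receptor Rarg -1.10 (SE 0.40) and the histone demethylase Kdm6a 0.56 (SE 0.22).

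Among the partner proteins, 4 of 8 tested TALE genes were below 0, and 0 passed either test. Meis1 had 199 and 216 CPM in the WT libraries against 114 and 215 CPM in the KO libraries, low only in KO replicate 1. Pbx3 had 276 and 156 CPM in the WT libraries against 21.0 and 144 CPM in the KO libraries, and it was lowest in that same library (log2 fold change -1.39, SE 0.90). Pbx4 had -0.98 (SE 0.46) and Tgif2 1.5 (SE 0.56). Of the genes linked to HOXA9 and MEIS1 in leukemia, 13 of 24 tested were below 0, with a median of -0.073. DESeq2 called 1 of them, Id2, which blocks basic helix-loop-helix proteins, as higher, with 39.7 and 38.6 CPM in the WT libraries against 169 and 127 CPM in the KO libraries (DESeq2 adjusted p = 2.78e-08), and it did so in each of 4 fits that left out 1 library. Myb, at 1253 to 1381 CPM over the 4 libraries, had 0.037 (SE 0.22), Lmo2 -0.020 (SE 0.26) and Cdkn2a -1.57 (SE 0.71).

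**Figure D5:**
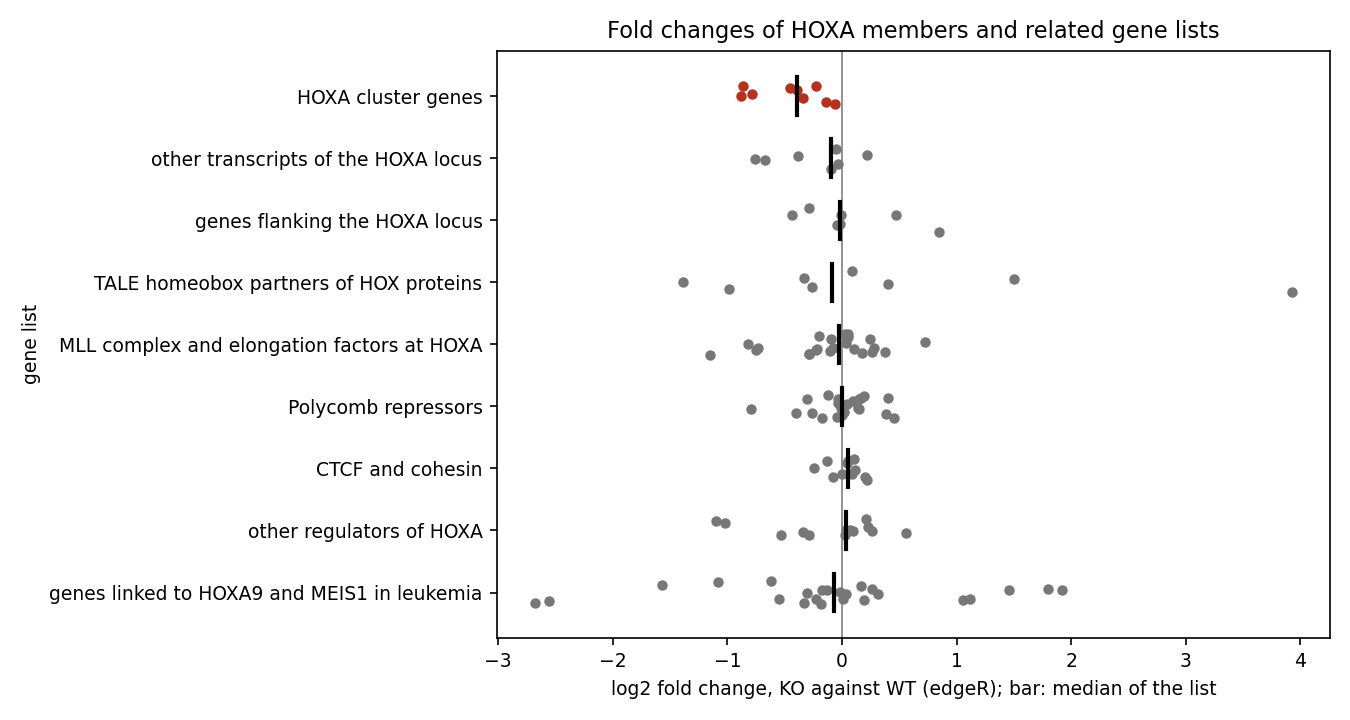
Each point is a tested gene's edgeR log2 fold change of KO against WT, and each bar a list's median. The 9 HOXA members (top row) all lie below 0 with a median of -0.39, and the medians of the 8 other lists plotted lie between -0.092 and 0.055, with the HOXB list (3 tested genes, median 3.61) and the cell type markers not plotted.

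Outside HOXA, HOXD genes had 0 counts, and HOXC genes summed to at most 0.65 CPM per library. HOXB genes summed to 1.75 and 6.15 CPM in WT and to 43.9 and 7.69 CPM in KO, so the library with the lowest Hoxa6 was also the one with the most HOXB reads. Hoxb2 had 0 and 0 counts in WT and 198 and 25 in KO, and DESeq2 called it (adjusted p = 9.1e-05), with no adjusted p without KO replicate 1. Hoxb3 had 0.15 and 1.70 CPM in the WT libraries against 19.8 and 2.76 CPM in the KO libraries, and Hoxb4 1.60, 4.24, 8.23 and 3.11 CPM in the same order. In KO replicate 1, Hoxa3, Hoxa6, Meis1 and Pbx3 were thus low and the HOXB sum high. This was not particular to HOX genes and their partners, and not shared by all of them. Cdk6 had 183 and 181 CPM in WT against 62.2 and 232 CPM in KO replicates 1 and 2. Pds5a had 218 and 268 CPM against 106 and 304 CPM. Hoxa9 and Hoxa10 were higher in KO replicate 1 than in KO replicate 2. These levels stood beside the Xist and Ddx3y levels given above. The part of sex and of that library's other differences in these results was not tested.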

How the data were processed

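RNA-seq of 4 libraries was analysed, and 4 chromatin accessibility samples of the series were not analysed here. The authors deposited raw read counts per gene symbol; the build was mm10, and MACS2, Picard, HTSeq, Bowtie2 2.2.5 and STAR 2.3.0 are listed without roles, per the submitters' processing notes. Strand setting and annotation: not given in the sources used here. The last 5 rows, which name no gene and hold 69.3% to 72.4% of each file's reads, were left out. Genes passing edgeR's filterByExpr were TMM-scaled and tested, KO against WT, with edgeR 4.0.16 (robust quasi-likelihood F-test, no covariate, Benjamini-Hochberg threshold 0.05) in R 4.3.3. DESeq2 1.42.0, voom in limma 3.58.1, other scalings and filters, a replicate block and leaving out libraries were alternatives. The tools were tested on simulated data. Differences between single libraries use log2 CPM with a prior count of 2. Coordinates and sequences are RefSeq's for GRCm38.p6, the assembly behind mm10. Exon lengths were not used here, so the planned levels per exon were replaced by levels per gene span and by shares of counts.

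The members and lists were chosen with earlier results of these data known. Named genes are all members, the locus transcripts with counts, per list the gene of smallest p in each direction and the 2 of highest mean CPM, Ikzf2, and the 5 genes nearest in profile; some items are not reported here. Skap2, Hibadh, Cdk6 and the marker and check genes were named outside this rule, after their values were seen.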

Additional observations from a re-analysis of the deposited data

How the results depend on the processing

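Every member kept its side of the threshold under each edgeR and voom setting. The main edgeR and voom fits called 0 genes, and not even the deleted Ikzf2 passed (adjusted p = 0.332 by edgeR and 0.397 by voom). Staying uncalled therefore says little about how stable a member's difference was. The number of genes called by edgeR, 0 over all libraries, was 4 with no low-count filter, between 0 and 156 with 1 library left out, and 352 with DESeq2. DESeq2 with 1 library left out, an alternative added after seeing the data, called 162, 390, 178 and 384 genes without WT replicates 1 and 2 and KO replicates 1 and 2, and 0 members except 1 without KO replicate 2. No label says that equal replicate numbers mark a shared animal or batch; the replicate 1 minus 2 differences of WT and KO correlated at r = 0.19 over 12623 genes, Fos and Jun were higher in replicate 2 of both genotypes, and with the replicate number as a block edgeR called 11 genes, 0 of them members. Ikzf2 (log2 fold change -3.89, edgeR adjusted p = 0.332) passed DESeq2 at -3.88 and, in edgeR with 1 library left out, ranged from -4.67 to -3.39; in DESeq2 fits of that kind it was -3.85, -3.91, -3.38 and -4.67. Hoxa2 turned to 0.268 (edgeR) and 0.268 (DESeq2) without WT replicate 2 and to 0.262 and 0.271 without KO replicate 1, where Hoxa3 was at 0.031 and 0.040. Over the edgeR fits with 1 library left out, Hoxa2 ran from -0.47 to 0.27 and Hoxa3 from -0.85 to 0.031. Hoxa6 was called by DESeq2 without KO replicate 2, at -2.47. The KO minus WT difference in the share of Hoxa5 was -5.39 percentage points and -7.19 when counts were divided by gene span, also added later. The cause of these shifts was not tested. In fits with 1 library left out, the lone library of a group is assumed to vary like the other group. With longest transcripts the level along the cluster was not run. Counting error limits Hoxa11, at 18 to 47 counts.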
